A study of Mus musculus with 18 samples.

Results

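From a list of quiescence and naive state transcription factor genes, 7 (Foxo1, Foxp1, Lef1, Bach2, Satb1, Id2 and Id3) were followed in naive CD4 T cells on 18 arrays. The genes were taken by name, and each probe set annotated to one of these symbols alone was read in every sample. Of the 8 genes listed, 7 had such a probe set, and Tcf7 was not analysed here. Those 7 genes hold 26 of the 45037 probe sets that are not controls, among 18193 genes read by a probe set of a single symbol. Probe sets too dim to rise over their array's median in 3 or more samples were not tested, and this left 25 of the 26. The one left out was a Foxo1 probe set. Foxp1 had 8 tested probe sets, Satb1 had 5, Foxo1, Bach2 and Id2 had 3 each, Lef1 had 2 and Id3 had 1. Each gene is described by its brightest probe set, and the others are given where they differ.

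All samples were total RNA of C57BL/6J mouse CD4 T cells, taken out of spleens and lymph nodes and sorted as naive by CD62L and the lack of CD44 and CD25. STAT3-deficient cells came from mice of the genotype Cd4-Cre_C57BL6-STAT3<tm1Dlv>, in which a Cre recombinase under the Cd4 promoter acts on Stat3 in the T cell lineage, and WT cells came from wild type mice, for which the labels name no Cre. Cells of each genotype were cultured for 3 hours with IL-27 at 20 ng/ml, with IL-6 at 20 ng/ml or in medium alone, which gave 6 groups of 3 biological replicates. The labels do not say whether the 3 samples of a group came from separate mice, so the p-values measure the spread between these samples.

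Naive T cells rest until an antigen receptor signal, and their quiescence is an active state kept by transcription factors. FOXO1 drives genes for survival and homing, FOXP1 restrains growth and the response to IL-7, and LEF1 is a DNA-binding partner of beta-catenin that marks naive and memory precursor cells. BACH2 is a repressor that limits effector differentiation, SATB1 organises chromatin in thymocytes and T cells, and ID2 and ID3 are inhibitors that bind E proteins and keep them off DNA. IL-6 and IL-27 share the receptor chain gp130 and act through JAK kinases, and both activate STAT3.

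Start regions of these genes were searched for letters that such factors bind, in windows of 300 bases from 250 before to 50 after each RefSeq start (build GRCm38.p6). The 7 genes had 16 such windows. The STAT motif was written as TTCNNNGAA, the forkhead motif as GTAAACA and the TCF and LEF motif as CTTTGAT, all on both strands. A single match was found, for the STAT letters in the window of Bach2, from 140 to 132 bases before the start, and it overlapped no other motif. Over all 32851 RefSeq windows the STAT letters occurred in 8.3% and the IRF letters in 3.44%. The forkhead letters occurred in 3.65% and the TCF and LEF letters in 3.73%. No window of Satb1, which rose with IL-6 like Bach2, held a match. The first 250 bases of 2 windows are shown because these genes changed in opposite directions with IL-6, Bach2 at chr4:32417185-32417434 with the STAT letters in capitals and Foxo1 at chr3:52268087-52268336 with no match, both on the plus strand and 5′ to 3′.
Bach2: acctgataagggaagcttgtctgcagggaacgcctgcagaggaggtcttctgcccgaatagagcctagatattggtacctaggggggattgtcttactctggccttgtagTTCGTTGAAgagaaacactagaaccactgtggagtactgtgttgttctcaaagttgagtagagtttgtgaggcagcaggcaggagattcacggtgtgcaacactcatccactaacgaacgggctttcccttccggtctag
Foxo1: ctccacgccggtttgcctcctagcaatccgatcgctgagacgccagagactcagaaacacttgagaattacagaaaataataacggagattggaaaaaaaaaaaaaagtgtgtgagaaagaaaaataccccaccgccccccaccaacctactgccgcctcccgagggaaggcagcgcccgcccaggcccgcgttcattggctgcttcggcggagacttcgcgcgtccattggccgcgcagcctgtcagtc

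Signals below are normalised signals, the deposited linear intensity after quantile normalisation across arrays, and they can be compared between samples for a probe set but not between probe sets. Changes are differences of log2(signal + 32) with the standard error (SE) of a limma model over all arrays, 3 per group, and a change was called at a Benjamini-Hochberg adjusted p under 0.05 over all 26860 probe sets tested. Statements that sets of samples separate or do not overlap describe the values only. How many of all probe sets separate in the same way was not counted. In bulk RNA, fewer cells of a type and less RNA per cell cannot be told apart. Array medians of the deposited signal ran from 131.5 to 190.4 in STAT3-deficient and from 104.4 to 126.8 in WT samples, with no overlap. The first principal component, with 33.8% of the variance, separated the genotypes. Of 4 Stat3 probe sets, 2 were called lower in STAT3-deficient cells in medium, at -1.11 ± 0.12 (adjusted p = 1.15e-05) and -0.92 ± 0.13 (adjusted p = 9.76e-05), 1 was called higher at 0.80 ± 0.27 (adjusted p = 0.0345) and 1 was at 0.12 ± 0.20 (adjusted p = 0.704), and which of them lie in the deleted part was not examined.

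The 8 measured of 10 markers of naive CD4 T cells lay above the array median on every array. Their summed deposited signal was 84391 to 105986 in STAT3-deficient samples and 85209 to 129878 in WT samples. Markers of other cells stood apart between genotypes: the sum over 10 of 11 B cell markers was 2633 to 5815 in STAT3-deficient and 792.4 to 1163 in WT samples, and that over 10 myeloid markers was 3019.5 to 7559 in STAT3-deficient and 646.2 to 969.7 in WT samples. The 3 STAT3-deficient arrays numbered 3 were the lowest of their genotype, at 2633 to 3152 for B cells and 3019.5 to 3200.1 for myeloid cells, against 4364 to 5815 and 5175 to 7559 on the 6 others. The order of the 3 numbers was alike on all 3 treatments for both marker sums. Sums over 4 activation and memory markers were 1842 to 5779 on the 6 others and 5303 to 8587.5 on the arrays numbered 3. Those over 2 of 5 red blood cell markers were 98.9 to 169.9 and 228.4 to 472.2. Results that change without these 3 arrays are given with and without them. In medium all 7 tested B cell markers were called higher in STAT3-deficient cells, where 13.3% of all genes were called higher and 12.3% lower. Of 8 tested myeloid markers, 4 were called higher and 1 lower, Cd68 at -0.74 ± 0.20 (limma adjusted p = 0.0134). S100a8 and S100a9 made the largest parts of the myeloid sum there, at 2274 and 1595.7, against 17.3 and 8.5 in WT medium.

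IL-6 moved these genes in both directions in WT cells. Foxo1, Foxp1 and Lef1 fell and Bach2 and Satb1 rose, so that 5 of the 7 genes were called, 2 higher and 3 lower, where 3.43% of the 11971 genes tested were called higher and 4.24% lower. Among the 25 probe sets, 7 were higher and 10 lower, against 2.97% and 3.22% of all probe sets, and with median centring of the arrays in place of quantile normalisation 3 were higher and 3 lower. The median change of the 7 genes was -0.51, and that of all genes was -0.02.

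Lef1, the DNA-binding partner of beta-catenin, had the largest called fall. In WT cells it read 7459.6, 8212 and 8922 with IL-6, against 12504, 13028 and 14770.2 in medium. Every IL-6 sample lay below every medium sample, and the change was -0.71 ± 0.11, or 0.611-fold (adjusted p = 0.000267). The second Lef1 probe set gave 4874, 5620.2 and 5146 with IL-6 and 11065, 11430.5 and 10072 in medium. There the signal was down to 0.482-fold, a change of -1.05 ± 0.15 (adjusted p = 7.43e-05). Both probe sets put all IL-6 samples under all medium samples.

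Foxp1, which restrains the growth of resting T cells, read 6069, 6348 and 5881 with IL-6 in WT cells, against 9905, 8567 and 8031 in medium. The groups did not overlap and the change was -0.53 ± 0.09 (adjusted p = 0.000914). Of its 8 probe sets 6 were called lower and none higher, with changes between -0.53 and -0.05. Foxo1, the driver of survival and homing genes, read 3011, 3274 and 3188 with IL-6 in WT cells, against 4564, 4719 and 4228 in medium. The samples again separated, with a change of -0.51 ± 0.12 (adjusted p = 0.0111), and 2 of its 3 probe sets were called lower. Without WT medium sample 2 or WT IL-6 sample 1 the adjusted p was 0.0588 or 0.0553. The third probe set was at -0.38 ± 0.13 with an adjusted p of 0.103.

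Bach2, the repressor of effector genes, went the other way. It read 11669, 10510.3 and 10916 with IL-6 in WT cells, against 8670.4, 8514 and 8946 in medium. Every IL-6 sample was above every medium sample, a 1.26-fold change of 0.34 ± 0.08 (adjusted p = 0.00773). The adjusted p was 0.0528 without WT IL-6 sample 1. A second probe set was called at 0.40 ± 0.12 (adjusted p = 0.0491), and the third was at 0.38 ± 0.17 (adjusted p = 0.272).

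Satb1, the chromatin organiser, read 31462, 30591 and 35373 with IL-6 in WT cells, against 19419, 21277 and 26914 in medium. The groups did not overlap and the change was 0.54 ± 0.15, or 1.45-fold (adjusted p = 0.0306). All 5 Satb1 probe sets were called higher, at 0.38 to 0.74, with no overlap of samples on any of them. The call of the brightest probe set was lost when any of the 3 WT IL-6 samples or WT medium sample 1 or 2 was left out (adjusted p = 0.0583 to 0.176). Another Satb1 probe set gave 15637, 15940.3 and 14942 with IL-6 and 12943, 11028 and 10265 in medium, a change of 0.45 ± 0.09 (adjusted p = 0.00338).

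The ID genes were not called with IL-6 in WT cells. Id2, an inhibitor of E proteins that is high in effector lymphocytes, read 1244, 1927 and 2193 with IL-6 and 1639.7, 1356 and 1235 in medium, a change of 0.31 ± 0.20 (adjusted p = 0.515) with overlapping samples. Id3, the inhibitor that is high in naive T cells, read 237, 224 and 234 with IL-6 and 617, 499 and 442 in medium. The samples of Id3 separated, but the change of -1.05 ± 0.37 had an adjusted p of 0.117, which became 0.0211 without the 3 STAT3-deficient arrays numbered 3 and 0.00138 when only these 6 arrays were fitted. The spread of Id3 among STAT3-deficient samples enters its SE.

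**Figure D1:**
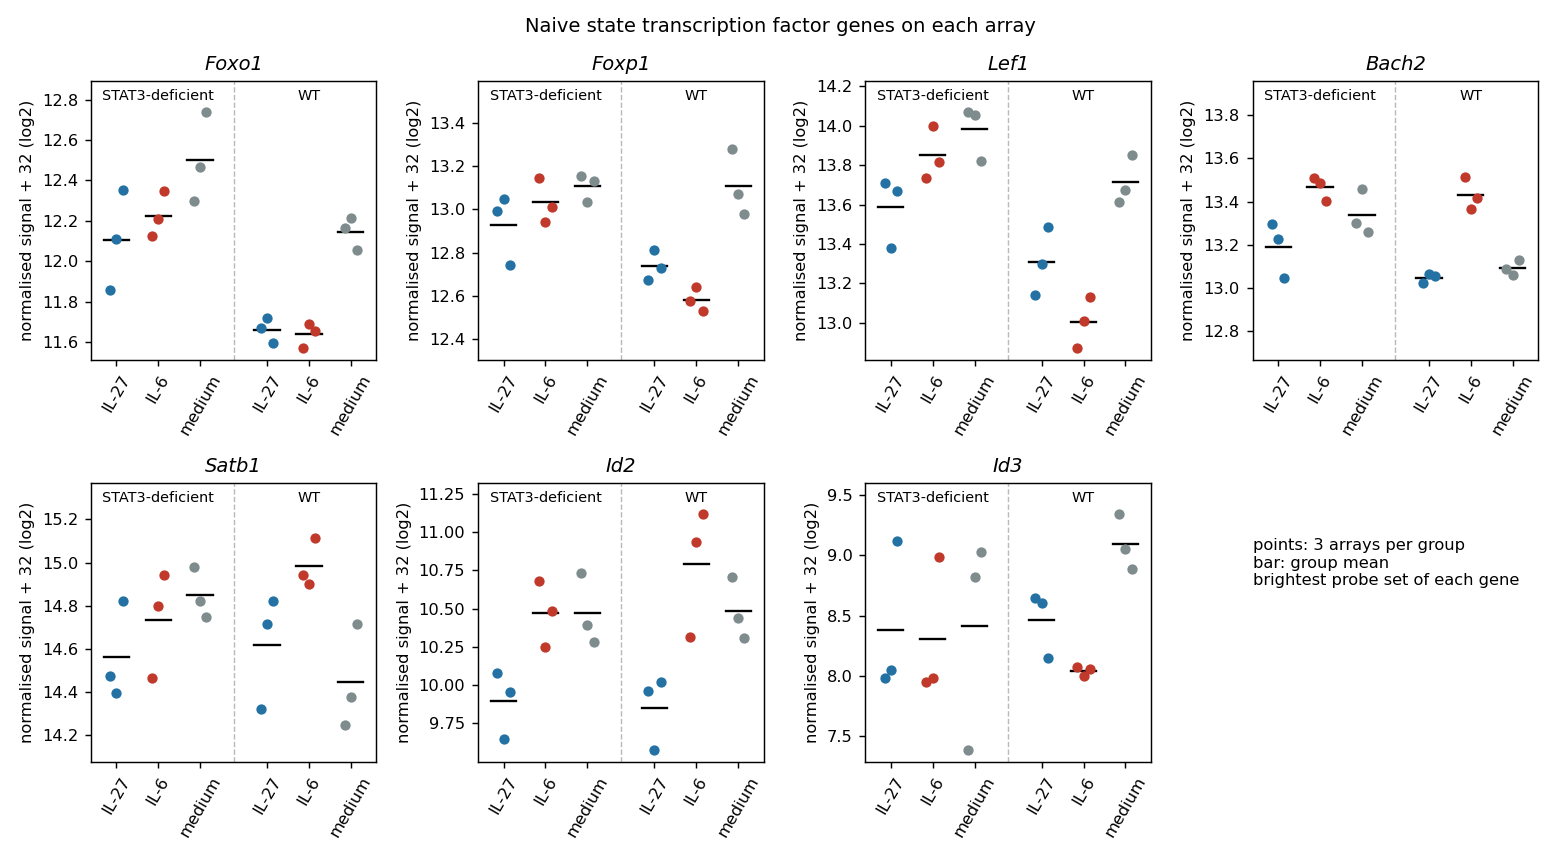
Normalised signal plus 32 on a log2 scale (vertical axis) of the brightest probe set of each gene on each array, with STAT3-deficient samples left of the dashed line and WT samples right of it, points for the 3 arrays of a group and a bar at their mean. Lef1, Foxp1 and Foxo1 are lowest in WT cells with IL-6 or IL-27, and the 6 arrays with IL-27 are the 6 lowest for Id2.

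With IL-27 in WT cells, Foxo1 and Foxp1 fell and no gene of the 7 rose, where 2.37% of all genes were called higher and 1.57% lower. Foxo1 read 3229.7, 3336 and 3067 with IL-27, against 4564, 4719 and 4228 in medium, with no overlap and a change of -0.48 ± 0.12 (adjusted p = 0.0276). Foxp1 read 6509, 7166 and 6755 with IL-27, against 9905, 8567 and 8031 in medium, also with no overlap, at -0.37 ± 0.09 (adjusted p = 0.0324). Both calls were lost when WT medium sample 1 or 2 or any of the 3 WT IL-27 samples was left out, at adjusted p of 0.0654 to 0.126 for Foxo1 and 0.0554 to 0.203 for Foxp1. They were also lost with the mean of the probe sets of a gene (adjusted p = 0.0773 and 0.0507). Of the 3 Foxo1 probe sets 1 was called lower, with changes from -0.48 to -0.33. Of the 8 Foxp1 probe sets 3 were called lower, with changes from -0.47 to 0.03.

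Lef1 in WT cells read 8998, 10039.5 and 11430.5 with IL-27, against 12504, 13028 and 14770.2 in medium. All IL-27 samples were lower, but the change of -0.41 ± 0.11 had an adjusted p of 0.0543, which was 0.0317 without WT IL-27 sample 3, while the second probe set was called at -0.61 ± 0.15 (adjusted p = 0.0248). Bach2 was at -0.05 ± 0.08 (adjusted p = 0.879) and Satb1 at 0.17 ± 0.15 (adjusted p = 0.711) with IL-27. The 95% interval of the Bach2 change with IL-27 ran from -0.21 to 0.11. Over the 25 probe sets, 5 were called lower with IL-27 and none higher, against 1.07% and 1.99% of all probe sets, with 13 at an unadjusted p under 0.05. On the deposited scale 3 were called lower, and after median centring 0.

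IL-27 and IL-6 were compared with each other directly. In WT cells 2 of the 7 genes, Bach2 and Id2, were lower under IL-27 than under IL-6 and none was higher, where 1.3% of all genes were called lower and 1.64% higher. Bach2 read 8283, 8537 and 8477 with IL-27 and 11669, 10510.3 and 10916 with IL-6, a change of -0.39 ± 0.08 (adjusted p = 0.0061) with no overlap. With the mean of its probe sets Bach2 was at -0.28 and not called (adjusted p = 0.148). Id2 read 966, 732 and 1006 with IL-27 and 1244, 1927 and 2193 with IL-6, a change of -0.94 ± 0.20 or 0.522-fold (adjusted p = 0.00962), again with no overlap. The Id2 call was lost without WT IL-6 sample 2, WT IL-6 sample 3 or WT IL-27 sample 2, at adjusted p of 0.0642, 0.0794 and 0.0725. Among the 25 probe sets 3 were called lower and none higher, against 1.05% and 1.28% of all probe sets, and with median centring 1 was lower. Bach2 and Id2 each had 1 called of 3, and the third of these was 1 of the 5 of Satb1, at -0.38 ± 0.09 (adjusted p = 0.0298). Changes ran from -0.39 to -0.17 over the Bach2 probe sets and from -0.94 to -0.51 over those of Id2. Foxo1 (0.02 ± 0.12), Foxp1 (0.16 ± 0.09) and Lef1 (0.30 ± 0.11) were not called between the cytokines, with adjusted p of 0.986, 0.66 and 0.247, and intervals of -0.23 to 0.27, -0.04 to 0.35 and 0.07 to 0.54.

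The brightest Id2 probe set was low with IL-27 in both genotypes. Its signals were 1052, 772 and 959.7 with IL-27, 1611, 1184 and 1400.2 with IL-6 and 1667, 1311 and 1214 in medium in STAT3-deficient cells. The 6 IL-27 samples of both genotypes spanned 732 to 1052 and the 12 other samples 1184 to 2193, with no overlap. Against medium the Id2 change with IL-27 was -0.57 ± 0.20 in STAT3-deficient cells (adjusted p = 0.142) and -0.63 ± 0.20 in WT cells (adjusted p = 0.1), so neither passed. All other tested probe sets of these genes, the other Id2 probe sets among them, overlapped between the IL-27 samples and the rest. This split of the samples was not among the planned comparisons and was not tested. Over the 3 Id2 probe sets the change with IL-27 from medium ran from -1.05 to -0.22 in STAT3-deficient cells. In WT cells it ran from -0.63 to -0.06, and none was called in either genotype.

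In STAT3-deficient cells none of the 7 genes was called in limma with either cytokine. With IL-6, 1.64% of all genes were called higher and 0.142% lower, and 1 of the 7 genes, Foxo1, had an unadjusted p under 0.05. None of the 25 probe sets was called, with 2 at an unadjusted p under 0.05, against 1.33% of all probe sets called higher and 0.0968% lower. Lef1 read 13599.9, 16344 and 14364 with IL-6, against 17148, 17007 and 14444 in medium, a change of -0.13 ± 0.11 with an interval of -0.37 to 0.10 (adjusted p = 0.878). Foxp1 read 9038, 7836 and 8212 with IL-6, against 9096, 8349 and 8946 in medium, at -0.07 ± 0.09. The samples of both genes overlapped. Foxo1 read 4433, 4698 and 5173 with IL-6, against 5013, 5626 and 6794 in medium, at -0.28 ± 0.12 (adjusted p = 0.561). Satb1 read 22626, 28439.8 and 31462 with IL-6, against 32257, 28936 and 27462 in medium, at -0.11 ± 0.15, and Bach2 read 11641, 11449.6 and 10800.0 with IL-6, against 10055, 11224 and 9762 in medium, at 0.13 ± 0.08. These samples overlapped too, and the intervals ran from -0.42 to 0.19 for Satb1 and from -0.03 to 0.29 for Bach2.

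With IL-27 in STAT3-deficient cells, where 3.07% of all genes were called higher and 1.4% lower, 3 of the 7 genes had an unadjusted p under 0.05 and none was called. None of the 25 probe sets was called either, with 10 at an unadjusted p under 0.05, against 2.62% of all probe sets called higher and 0.983% lower. Lef1 read 13345, 10619.8 and 13002 with IL-27, against 17148, 17007 and 14444 in medium. All IL-27 samples were lower and the change was -0.40 ± 0.11 with an adjusted p of 0.0551, which became 0.0325 at a change of -0.52 without the 3 arrays numbered 3. Foxo1 read 3676, 4386 and 5201 with IL-27, against 5013, 5626 and 6794 in medium, at -0.39 ± 0.12 (adjusted p = 0.0817), and at -0.40 with an adjusted p of 0.0447 without those 3 arrays. On each of the 3 treatments the STAT3-deficient sample numbered 3 had the highest Foxo1 signal of its group. Bach2 read 10022, 9571 and 8441 with IL-27, Satb1 22755, 21524 and 28936 and Foxp1 8124, 8441 and 6816, at changes of -0.15 ± 0.08, -0.28 ± 0.15 and -0.18 ± 0.09 from medium. Those 3 groups overlapped their medium samples. Between IL-27 and IL-6 in STAT3-deficient cells, none of the 7 genes was called, at adjusted p of 0.287 for Bach2 and more for the others. In that comparison 3 had an unadjusted p under 0.05, and 0.292% of all genes were called higher and 0.00835% lower. No probe set of the 25 was called there, with 10 at an unadjusted p under 0.05, against 0.197% of all probe sets called higher and 0.00745% lower.

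**Figure D2:**
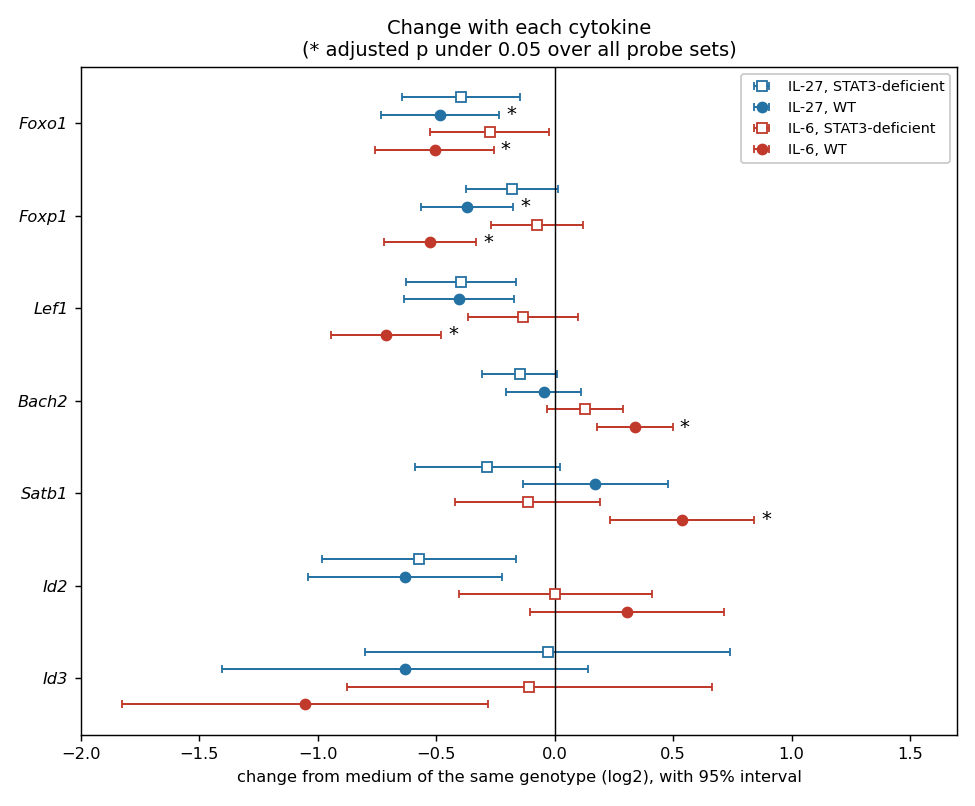
Change from medium of the same genotype (log2, horizontal axis) with the 95% interval of the model for each gene, open squares for STAT3-deficient and filled circles for WT cells, blue for IL-27 and red for IL-6, and an asterisk where the adjusted p was under 0.05. All 7 called changes are in WT cells, and the IL-6 changes of the STAT3-deficient cells lie between -0.28 and 0.13.

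Whether the cytokine effect differed between genotypes was tested as an interaction. For the effect of IL-6, STAT3-deficient minus WT, none of the 7 genes was called by its brightest probe set in limma, where 1.65% of all genes were called higher and 1.12% lower, and 3 had an unadjusted p under 0.05. Lef1 was at 0.58 ± 0.16 (adjusted p = 0.066), Foxp1 at 0.45 ± 0.13 (adjusted p = 0.0946) and Satb1 at -0.65 ± 0.21 (adjusted p = 0.138). Without the 3 STAT3-deficient arrays numbered 3 the Satb1 difference was -0.81 (adjusted p = 0.0497).

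Of the 25 probe sets, 2 were called for this difference, 1 in each direction, where 1.25% of all probe sets were called higher and 0.964% lower. With the deposited scaling 3 were called higher and none lower, and with median centring 2 and none. The second Lef1 probe set changed with IL-6 by -0.08 ± 0.15 in STAT3-deficient cells and by -1.05 ± 0.15 in WT cells, a difference of 0.98 ± 0.21 (adjusted p = 0.0135). In STAT3-deficient cells it read 8954, 6665 and 5874 with IL-6, against 7909.5, 7149 and 7258 in medium, so the groups overlapped there. A dimmer Satb1 probe set changed with IL-6 by 0.05 ± 0.12 in STAT3-deficient cells and by 0.74 ± 0.12 in WT cells, a difference of -0.69 ± 0.17 (adjusted p = 0.0348). Its signals were 5233, 4956 and 4370.3 with IL-6 and 4542, 5283 and 4228 in medium in STAT3-deficient cells, and 6852, 5099.8 and 5498 with IL-6 and 3082, 3797 and 3482 in medium in WT cells. The groups overlapped in STAT3-deficient cells and did not in WT cells. The Satb1 call was lost on the deposited scale (adjusted p = 0.0736) and after median centring, where the difference was -0.40 (adjusted p = 0.536). It was also lost without the arrays numbered 3 (adjusted p = 0.0662) and when WT medium sample 1 or 3, WT IL-6 sample 1 or 3, STAT3-deficient medium sample 1 or 2 or STAT3-deficient IL-6 sample 2 or 3 was left out (adjusted p = 0.0543 to 0.112). All 8 Foxp1 probe sets had a positive difference, 0.23 to 0.46, and all 5 Satb1 probe sets a negative one, -0.69 to -0.48. Probe sets of a gene share the same RNA and are not replicates.

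For the effect of IL-27, no gene and no probe set was called as different between genotypes, where 0.00835% of all genes were called in each direction and 0.00372% of all probe sets. Of the 7 genes, 1 had an unadjusted p under 0.05, Satb1 at -0.46 ± 0.21 (adjusted p = 0.684). Of the 25 probe sets 6 had one. Lef1 differed by 0.01 ± 0.16, with an interval of -0.32 to 0.34, and Foxo1 by 0.09 ± 0.17, with an interval of -0.26 to 0.44.

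**Figure D3:**
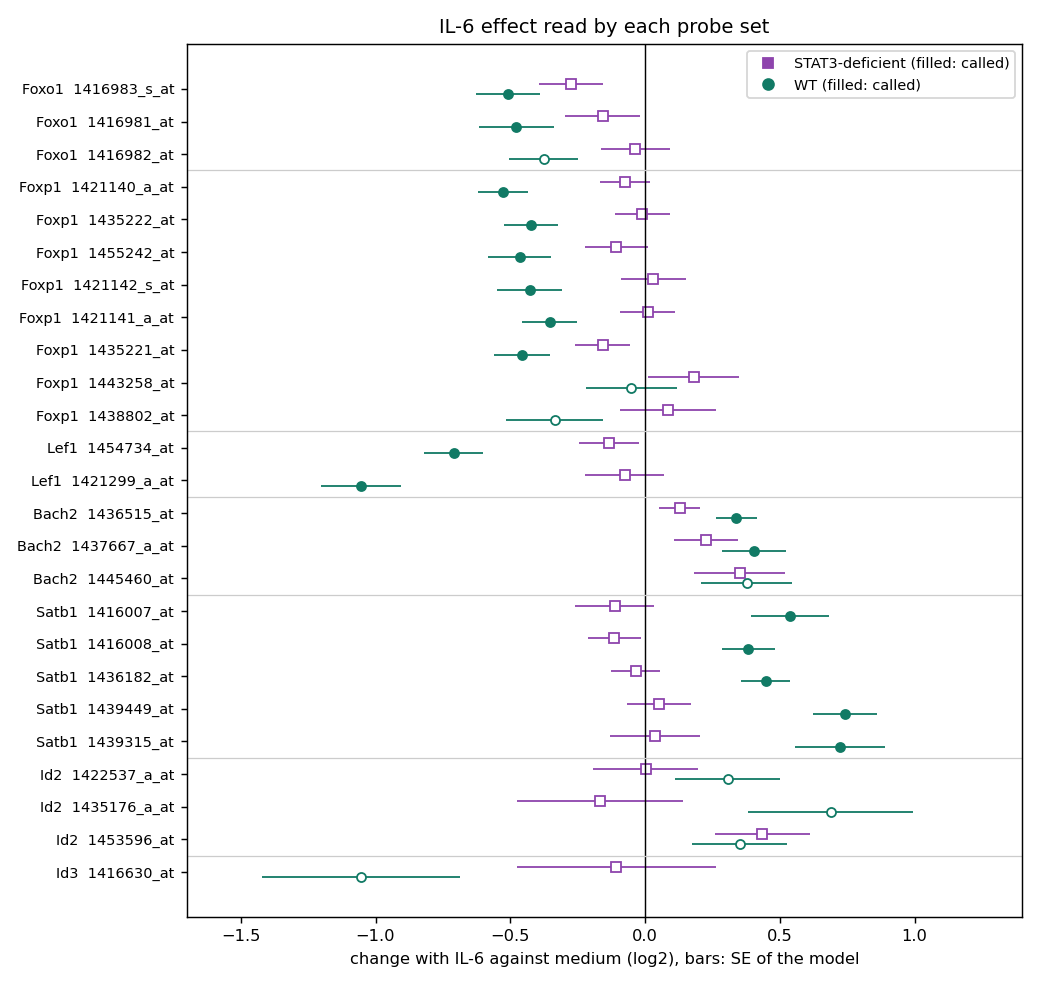
Change with IL-6 against medium (log2, horizontal axis, bars for the SE of the model) read by each of the 25 probe sets, squares for STAT3-deficient and circles for WT cells, filled where called. All 17 filled symbols are circles, and the Satb1 circles lie between 0.38 and 0.74 while the Satb1 squares lie between -0.11 and 0.05.

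Without cytokine, Bach2 and Foxo1 were called higher in STAT3-deficient than in WT cells and none of the 7 was called lower, where 13.3% of all genes were called higher and 12.3% lower. Bach2 read 10055, 11224 and 9762 in STAT3-deficient and 8670.4, 8514 and 8946 in WT cells, at 0.25 ± 0.08 (adjusted p = 0.0255). Foxo1 read 5013, 5626 and 6794 in STAT3-deficient and 4564, 4719 and 4228 in WT cells, at 0.36 ± 0.12 (adjusted p = 0.0368). The samples separated for both genes. Foxo1 was at 0.24 (adjusted p = 0.0946) without the arrays numbered 3, and Bach2 was at -0.14 (adjusted p = 0.636) with the mean of the markers of B and myeloid cells in the model. In that model Foxo1 was at 1.06 (adjusted p = 0.0187), Satb1 at 1.03 (adjusted p = 0.0787) and Id3 at 1.58 (adjusted p = 0.206). The levels of these markers did not overlap between the genotypes, so that model cannot tell the marker mean and the genotype well apart. The Bach2 call was lost without WT medium sample 1 or 2 or STAT3-deficient medium sample 2 (adjusted p = 0.0677 to 0.125), and the Foxo1 call without any of the WT medium samples or STAT3-deficient medium sample 2 or 3 (adjusted p = 0.0599 to 0.166). Without the arrays numbered 3, Lef1 at 0.35 and Satb1 at 0.45 were called higher and Id3 at -0.99 lower.

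These directions depended on the scaling of the arrays and on the probe set. With median centring Bach2 was at -0.59, Foxo1 at -0.41, Lef1 at -0.56 and Satb1 at -0.37, and the median of all genes moved by -0.43. Of the 25 probe sets, 6 were called higher and 3 lower after quantile normalisation, 2 and 5 with the deposited scaling and none and 19 with median centring, while 11.3% and 13% of all probe sets were called higher and lower after quantile normalisation. Within Lef1, the brighter probe set was at 0.27 ± 0.11 (adjusted p = 0.0842) and the other at -0.54 ± 0.15 (adjusted p = 0.0127). Within Foxp1, 1 probe set was called higher at 0.40 ± 0.10 and 1 lower at -0.49 ± 0.10, and within Satb1, 1 was called higher at 0.44 ± 0.12 and 1 lower at -0.30 ± 0.09. The Bach2 probe sets were at 0.25, 0.71 and -0.40, and those of Foxo1 at 0.36, 0.10 and -0.15. Those of Id2 lay between -0.37 and 0.89, with 1 of the 3 called higher. No single direction for the genotype difference can be given for Bach2, Foxo1, Foxp1, Lef1, Satb1 or Id2.

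**Figure D4:**
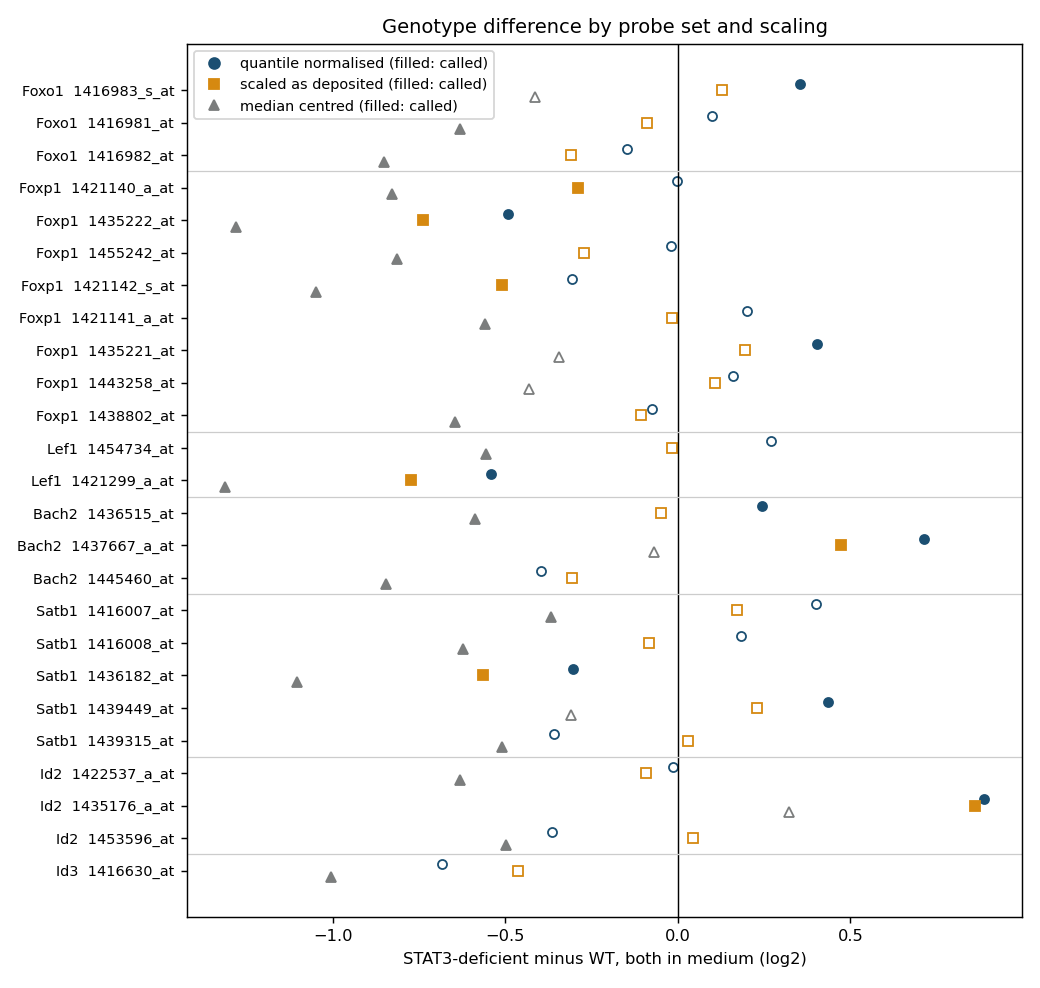
Difference between STAT3-deficient and WT cells in medium (log2, horizontal axis) for each of the 25 probe sets under 3 scalings of the arrays, filled where called. Circles after quantile normalisation lie on both sides of 0 within Bach2, Foxo1, Foxp1, Lef1, Satb1 and Id2. Of the 25 median-centred triangles 19 are filled, all below 0.

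Id3 varied more among STAT3-deficient samples than in any WT group. It read 221, 233 and 523 with IL-27, 215, 221 and 476 with IL-6 and 135, 421 and 489.6 in medium in STAT3-deficient cells. The sample numbered 3 was the highest in each of these groups. In WT cells it read 368, 356 and 251 with IL-27, between the IL-6 samples at 224 to 237 and the medium samples at 442 to 617. In medium the genotypes overlapped, at -0.68 ± 0.37 (adjusted p = 0.186).

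The 6 groups were also ordered by their mean level for each gene. For Foxo1 the order from high to low was STAT3-deficient medium, STAT3-deficient IL-6, WT medium, STAT3-deficient IL-27, WT IL-27 and WT IL-6, and only the step between STAT3-deficient IL-27 and WT IL-27 separated the samples of neighbours. For Foxp1 the 2 medium groups were highest, then STAT3-deficient IL-6, STAT3-deficient IL-27, WT IL-27 and WT IL-6, and only the last step separated neighbours. Lef1 ran from STAT3-deficient medium through STAT3-deficient IL-6, WT medium, STAT3-deficient IL-27 and WT IL-27 to WT IL-6, also with only the last step clear of overlap. Bach2 ran from STAT3-deficient IL-6 through WT IL-6, STAT3-deficient medium, STAT3-deficient IL-27 and WT medium to WT IL-27, and Satb1 from WT IL-6 through STAT3-deficient medium, STAT3-deficient IL-6, WT IL-27 and STAT3-deficient IL-27 to WT medium, with overlap at every step. The order across genotypes carries the dependence on scaling given above.

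Genes around these factors were read from lists of their partners, relatives and targets. In WT cells with IL-6, 2 of 11 measured genes of FOXO and FOXP relatives and the kinases that control FOXO rose and 1 fell. These were Akt2, a kinase that phosphorylates FOXO proteins, at 1.02 ± 0.10 (adjusted p = 7.3e-07), Sgk1, a kinase of the same kind, at 1.24 ± 0.29 (adjusted p = 0.0112), and Pik3ip1, an inhibitor of PI3 kinase, at -0.37 ± 0.11 (adjusted p = 0.0446). With IL-27 in WT cells Akt2 rose by 0.45 ± 0.10 (adjusted p = 0.0103), the only call of 11. Set against IL-6, IL-27 left Sgk1 lower, at -1.52 ± 0.29 (adjusted p = 0.00484), and Akt2 lower, at -0.57 ± 0.10 (adjusted p = 0.00148), in WT cells. In STAT3-deficient cells none of the 11 was called in limma with IL-27 or IL-6, and 1 and 0 had an unadjusted p under 0.05. The difference of the IL-6 effect, STAT3-deficient minus WT, was called for Akt2 alone, at -1.10 ± 0.14 (adjusted p = 0.00011), and not for Sgk1 or Pik3ip1. The median of the 11 was -0.09 with IL-6 in WT cells.

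Among 13 measured of 14 reported FOXO1 targets, 2 rose and 4 fell with IL-6 in WT cells, with a median of -0.05. Il7r, the IL-7 receptor chain, fell by 0.65 ± 0.09 on the log2 scale (adjusted p = 9.63e-05) and Sesn1, a stress-induced sestrin, fell by 0.65 ± 0.11 (adjusted p = 0.000481). Sesn3, its relative, rose by 0.85 ± 0.10 (adjusted p = 8.68e-06), and Bcl2l11, which encodes the death protein BIM, rose by 0.56 ± 0.16 (adjusted p = 0.0361). Ccr7 and Klf2, named after their values were seen, fell by 0.40 ± 0.07 and 0.62 ± 0.07. With IL-27 in WT cells 1 rose, Sesn3, and 4 fell, Il7r, Ccr7, Klf2 and Sesn1. In STAT3-deficient cells only Ccr7 of the 13 was called, at -0.30 ± 0.07 with IL-27 (adjusted p = 0.0128), and none with IL-6, where 1 had an unadjusted p under 0.05. The difference of the IL-6 effect was called for Il7r, Klf2 and Sesn3, at 0.55 ± 0.13, 0.62 ± 0.10 and -0.79 ± 0.14 (adjusted p = 0.0283, 0.00154 and 0.00344). It was not called for Ccr7, Sesn1 or Bcl2l11. The called targets moved in both directions where Foxo1 fell.

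Partners of LEF1 are co-activators and co-repressors that it recruits to DNA. Of 13 measured of 15 TCF and LEF partners, 1 was called in any comparison of cytokine groups, Tle4, a Groucho co-repressor, at -0.52 ± 0.15 (adjusted p = 0.0419) with IL-6 in WT cells, with 2 of the 13 at an unadjusted p under 0.05 there and up to 3 in the others. Of the 6 measured BACH and small MAF genes, Nfe2l2, which encodes NRF2, rose by 0.44 ± 0.08 (adjusted p = 0.00219) with IL-6 in WT cells, and Mafk, a small MAF partner of BACH proteins, rose by 0.72 ± 0.20 with IL-27 in STAT3-deficient cells (adjusted p = 0.0487). The difference of the IL-6 effect was called for Nfe2l2, at -0.57 ± 0.12 (adjusted p = 0.0123), and not for Tle4. None of 5 ID and E protein genes and none of 3 SATB relatives was called in limma with a cytokine against medium, with up to 1 and up to 2 at an unadjusted p under 0.05.

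Of 20 measured of 21 other quiescence genes, 2 rose and 3 fell with IL-6 in WT cells, with a median of -0.01. Cdkn2d, a cell cycle inhibitor, rose by 1.72 ± 0.18 (adjusted p = 2.65e-06) and Zfp36, an RNA-binding protein that destabilises cytokine messages, rose by 1.62 ± 0.27 (adjusted p = 0.000489). Dgkz, a diacylglycerol kinase that dampens receptor signalling, fell by 0.88 ± 0.08 (adjusted p = 3.92e-07), Vsir, an inhibitory receptor, fell by 0.57 ± 0.13 (adjusted p = 0.00844), and Klf6, named after its value was seen, fell by 0.51 ± 0.10. In STAT3-deficient cells Dgkz was the only one of the 20 called, at -0.52 ± 0.08 with IL-27 and -0.34 ± 0.08 with IL-6 (adjusted p = 0.000325 and 0.0329). The difference of the IL-6 effect was called for Cdkn2d, Zfp36, Dgkz and Klf6 (adjusted p = 0.000299, 0.0284, 0.0123 and 0.0214), and not for Vsir.

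Transcription factors of effector cells rose more often than they fell. With IL-6 in WT cells 6 of 17 measured rose and 1 fell, with a median of 0.56. Bcl6, the factor of follicular helper cells, rose by 1.79 ± 0.16 (adjusted p = 3.76e-07) and Batf, a partner of JUN and IRF factors, rose by 1.72 ± 0.14 (adjusted p = 1.04e-07). The fall was Gata3, named after its value was seen, by 1.02 ± 0.19. With IL-27, 4 of the 17 rose and none fell in STAT3-deficient cells, and the same counts held in WT cells. Tbx21, which encodes T-bet, rose by 2.92 ± 0.27 (adjusted p = 4.82e-07) and Irf4 by 2.14 ± 0.45 (adjusted p = 0.0078) with IL-27 in STAT3-deficient cells. Of all 17, only Tbx21 was called with IL-6 in STAT3-deficient cells, at 1.60 ± 0.27 (adjusted p = 0.00152). The difference of the IL-6 effect was called lower for 3, Bcl6 and Batf among them, and higher for 1, Gata3. No gene of these lists was called for the difference of the IL-27 effect.

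**Figure D5:**
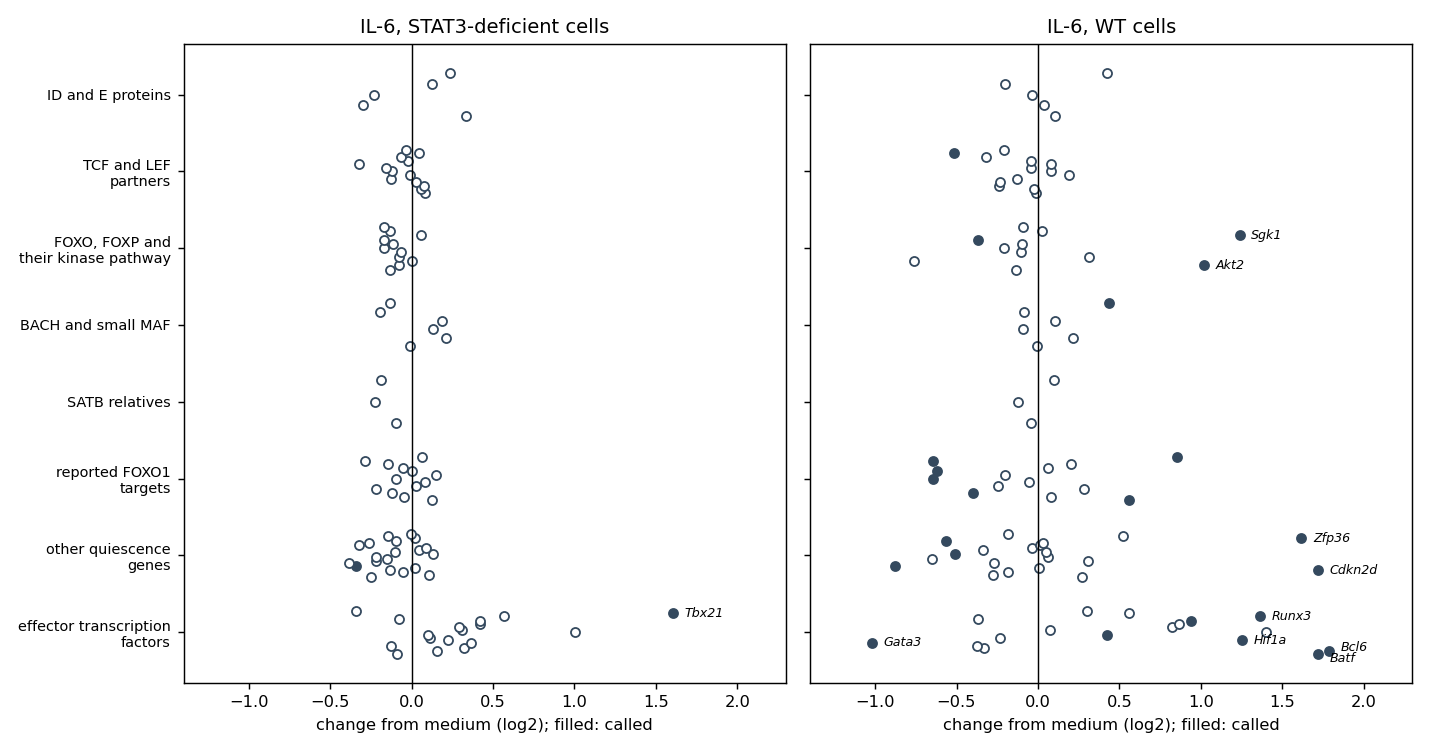
Change with IL-6 from medium (log2, horizontal axis) of each measured gene of the 8 lists, STAT3-deficient cells on the left and WT cells on the right, filled where called, with names at called changes beyond 1. With IL-6, 2 genes are filled in STAT3-deficient cells, Tbx21 and 1 of the quiescence genes, and the filled symbols in WT cells lie on both sides of 0 for the FOXO1 targets and the quiescence genes.

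Markers of the sorted cells moved with the same treatments. Of the 8 naive CD4 T cell markers, none rose and 6 fell with IL-6 in WT cells (Cd3g, Cd4, Thy1, Ccr7, Il7r and Cd28, of which Ccr7 and Il7r are also on the FOXO1 target list), and 5 fell with IL-27 in WT cells. In STAT3-deficient cells 3 fell with IL-27 and none was called with IL-6. Their summed deposited signal was 85209 to 89416 with IL-6 and 118798 to 129878 in medium in WT cells. The difference of the IL-6 effect between genotypes was called for Thy1, Il7r and Cd28. Of 3 tested activation and memory markers, Cd44 fell with IL-6 in WT cells, by 0.82 ± 0.22 (limma adjusted p = 0.0324). None of the 3 was called with IL-27 in WT cells or with either cytokine in STAT3-deficient cells. None of 7 tested B cell or 8 tested myeloid markers was called in limma with either cytokine in either genotype, with at most 1 at an unadjusted p under 0.05. Of 4 tested markers of CD8 T and NK cells, 2, Klrd1 and Ccl5, fell with IL-6 and with IL-27 in WT cells. Klrd1 also fell with IL-27 in STAT3-deficient cells, and Cd8a and Cd8b1 were called with neither cytokine. The sum over 7 of 8 such markers was 1588 to 1717 with IL-6 and 2740.4 to 3203 in medium in WT cells. There mean deposited signals in medium and with IL-6 were 1801.7 and 563.2 for Klrd1 and 81.5 and 20 for Ccl5. Those of Cd8b1 were 817.1 and 828, and those of Cd8a 140.3 and 148.1. The part of the marker changes in the falls of Lef1, Foxp1 and Foxo1 was not tested.

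For each gene called in any comparison, the genes most like it were found by the correlation of normalised log2 signal over the 18 arrays, which share the 6 groups. Lef1 was most like St8sia1, Sft2d2 and Fam78a, with r of 0.96, 0.96 and 0.95. Foxp1 was most like B4galnt1, Faah and Cd6, at 0.95, 0.94 and 0.94, and Foxo1 was most like Mknk2, Dusp2 and Ube2d2a, at 0.93, 0.92 and 0.91. Satb1 was most like Jmjd1c, Znrf3 and Aff4, at 0.94, 0.93 and 0.93. Bach2 had less close neighbours in Prr14, Ankrd11 and Srrt, at 0.84, 0.81 and 0.81, and within the 9 STAT3-deficient arrays these were 0.73, 0.52 and 0.38, against 0.88, 0.90 and 0.94 within the 9 WT arrays. Id2 was most like Cables2, Atp8b4 and Galnt6, at 0.79, 0.76 and 0.74. Between the members themselves, r over the 18 arrays was 0.79 for Foxo1 and Lef1, 0.75 for Foxp1 and Lef1 and 0.73 for Foxo1 and Foxp1, the 3 genes that fell with IL-6 in WT cells, and after the group means were removed it was -0.31, -0.48 and -0.28.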

How the data were processed

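Labelled RNA of 18 samples was hybridised to Affymetrix mouse arrays. Each deposited value is the intensity of a probe set on a linear scale, which the authors made with GCOS, per the submitters' processing notes, with the trimmed mean of every array at 500 (2% trimmed at each end, checked on the values). The version of GCOS is not stated there. Of 45101 probe sets, 64 controls were left out, 34945 had a single gene symbol in the platform annotation and 932 had several. Signals were taken as log2(signal + 32), quantile normalised, kept where above the array median on 3 or more arrays and fitted with limma 3.58.1 in R 4.3.3 (6 group means, 12 residual degrees of freedom, variance trend, 9 comparisons). Tests were two-sided. The number of arrays limits the precision, with a median SE of 0.21 for groups and 0.29 for differences between effects.

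The fit was tested on simulated data of 26860 probe sets with 200 changed, for IL-6 against medium in WT cells. It recovered 22.4% of 1.5-fold, 62.7% of 2-fold and 92.4% of 4-fold changes, with 7.81% false calls. A change that was not called is therefore not shown to be absent. Named genes were the members, up to 4 called genes per list with the largest change and the 3 genes most correlated with each called member. The members, lists and tests were chosen with earlier results of these data known. Alternatives covered scaling, constant, filter, gene summary, variance model, array weights, arrays fitted, replicate block, marker covariate and left-out arrays. What the sample numbers mark is not stated, and the samples were not treated as paired, since not every correlation between the deviations of same-numbered arrays was over 0.1 (-0.15 to 0.34 within STAT3-deficient and -0.01 to 0.21 within WT samples).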

Additional observations from a re-analysis of the deposited data

Results flagged for a closer look

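The IL-6 effect differed between STAT3-deficient and WT cells, by the test of the difference itself, for 2 of the 25 probe sets of these genes. The second Lef1 probe set differed by 0.98 ± 0.21 (limma adjusted p = 0.0135), and the brighter Lef1 probe set by 0.58 ± 0.16 (adjusted p = 0.066). A dimmer Satb1 probe set differed by -0.69 ± 0.17 (limma adjusted p = 0.0348), a call lost in 14 of 31 alternatives and at -0.40 (adjusted p = 0.536) with median centring, and the brightest Satb1 probe set by -0.65 ± 0.21 (adjusted p = 0.138).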

How the results depend on the processing

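For each comparison 33 alternatives were tried, 32 for the genotype comparison. The count of called genes kept within 1.5 times of its reported value in all 33 for IL-27 against IL-6 and IL-6 against medium in STAT3-deficient cells and for the difference of the IL-27 effect, each at 0. With IL-6 in WT cells 5 genes became 3 with median centring or no variance trend, and 2 to 6 when 1 array was left out. Lef1 was called there in all 33 (adjusted p up to 0.00384), Foxp1 was lost only with median centring (0.0772), and Bach2 and Foxo1 in 3 each, among them without WT IL-6 sample 1 (0.0528 and 0.0553). With IL-27 in WT cells 2 genes became 0 with median centring or no variance trend, 1 with the deposited scaling, no filter, the mean of probe sets or only the arrays compared, 4 with array weights, and 0 to 3 when 1 array was left out. With the mean of probe sets Foxo1 and Foxp1 were both lost (0.0773 and 0.0507), and the 1 gene called was Lef1 at -0.51 (0.00135). For IL-27 against IL-6 in WT cells 2 became 1 with median centring or no variance trend, and 1 to 2 when 1 array was left out. There the mean of probe sets lost Bach2 (0.148) and called Lef1 at 0.38 (0.0214) and Satb1 at -0.38 (0.000723). With IL-27 in STAT3-deficient cells 0 became 1 with the marker covariate, the filter on the mean or 1 value per gene, 2 with array weights or without the arrays numbered 3, 3 with the mean of probe sets, and 0 to 1 when 1 array was left out. For the difference of the IL-6 effect 0 became 1 with median centring or without the arrays numbered 3, 2 with array weights, the deposited scaling or the mean of probe sets, and 0 to 1 when 1 array was left out. The difference of the second Lef1 probe set was lost only with no variance trend (0.0555), and that of the dimmer Satb1 probe set in 14 of 31. For STAT3-deficient against WT cells in medium 2 became 1 with the marker covariate, the deposited scaling, no filter or only the arrays compared, 0 with the mean of probe sets or no variance trend, 4 with array weights or without the arrays numbered 3, 6 with median centring, and 0 to 3 when 1 array was left out. Calls whose sign turned there, or that were called with the other sign, were Bach2 at -0.0485 with the deposited scaling, -0.14 with the marker covariate and -0.59 with median centring, and Foxo1 at -0.41, Lef1 at -0.56 and Satb1 at -0.37 with median centring. Uncalled values turned for Lef1 (-0.0166 with the deposited scaling, -0.14 with the mean of probe sets) and Id3 (1.58 with the marker covariate), and for Foxp1 in 2 alternatives and Id2 in 5, whose reported values were near 0. The causes were not tested.

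A replicate block by sample number gave 2 genes with IL-27 in STAT3-deficient cells, Foxo1 and Lef1 (adjusted p = 0.0401 and 0.0463), and 1 for the difference of the IL-6 effect, Satb1 (0.034). A replicate block within genotype gave 2 and 2, the same Foxo1 and Lef1 (0.00321 and 0.0214) and Lef1 and Satb1 (0.0234 and 0.0384). In the pairing check 11 of 18 arrays, not all, correlated best with their own number. Within WT samples the pairs of number 1 were at 0.17 to 0.21 and those of number 3 at 0.13 to 0.19, and those of number 2 at -0.01 to 0.06.

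Over all probe sets, calls between genotypes numbered 3023 higher and 3492 lower, against 1302 and 10085 with median centring, 6108 and 3414 with the deposited scaling, 535 and 749 with the marker covariate, and 4139 to 6989 in all when 1 array was left out. For IL-27 in WT cells 822 calls became 1346 with array weights, and for IL-27 against IL-6 in WT cells 624 became 396 with median centring. With only the arrays compared, 383 became 194 for IL-6 and 968 became 494 for IL-27 in STAT3-deficient cells. For IL-27 against IL-6 in STAT3-deficient cells 55 became 17 to 93, for the difference of the IL-6 effect 594 became 1006 with the replicate block within genotype, and for that of the IL-27 effect 2 became 1 to 6. With 1 value per gene fewer features were tested, and 1663 became 996 for IL-6 in WT cells. The share of calls that were higher moved with median centring to 98.2% for IL-27 in STAT3-deficient cells, against 72.7%, and to 72.4% for the difference of the IL-6 effect, against 56.4%.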

Other observations

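All 5 Satb1 probe sets had a lower IL-27 effect in STAT3-deficient than in WT cells, with differences of -0.60 to -0.18, and none was called. The 95% interval of the largest was -0.96 to -0.25 (limma adjusted p = 0.61). This pattern was noticed after the values were seen.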
